A study of Mus musculus with 10 samples.

Results

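The urea cycle and glutamate nitrogen genes were examined in livers of Me1-deficient mice: Cps1, Otc, Ass1, Asl, Arg1, Nags, Slc25a13, Slc25a15, Glud1 and Gls2. The 10 genes were chosen by name, and all 10 were found among the 31218 genes of the deposited table and passed the filter on low counts, which left 18065 genes for testing. RNA-seq had been run on 5 livers of mice whose Me1 had been knocked out in hepatocytes (HKO; genotype label Me1 Alb/Alb) and on 5 livers of floxed wild-type littermates (Flox; genotype label Me1 flox/flox). Me1 is the cytosolic malic enzyme, which makes NADPH from malate. Mice of both groups had eaten a high-fat diet for 16 weeks, and the study asked about the function of Me1 in fatty liver disease. The labels do not spell out the Cre driver, and they give no sex, age, litter or batch. The knockout is directed at hepatocytes, so the other cells of the liver are assumed to keep Me1, which RNA of whole liver cannot show. A single library per liver was made from polyadenylated RNA, and the livers were treated as separate mice, which the labels do not state outright.

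The urea cycle turns ammonia, which is toxic to the brain, into urea for excretion, and in mammals the complete cycle runs in hepatocytes, mainly those near the portal vein. Carbamoyl phosphate and citrulline are made in mitochondria, citrulline is exported, and aspartate, arginine and ornithine are handled in the cytosol, so carriers of the inner mitochondrial membrane link the compartments. Glutamate supplies nitrogen on both sides: it is released from glutamine, it yields ammonia in mitochondria, and it passes its amino group to aspartate. Transcription of these genes is known to answer to glucagon, glucocorticoids and dietary protein.

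Me1 itself separated the groups in every liver. Its level in CPM (counts scaled to a common library size with edgeR's TMM factors) was 21.4, 22.2, 20.5, 21.4 and 26.9 in HKO livers 1 to 5 and 227, 160, 164, 145 and 163 in Flox livers 1 to 5. Total counts were 52790000 to 60765120 per liver, and each member had between 1832 and 139931 counts in each liver, so counting error is small beside the spread between livers. Markers of the labelled tissue were abundant in every library: the summed level of 8 hepatocyte markers was 75430 to 95940 CPM in HKO livers and 98630 to 120500 CPM in Flox livers. HKO 4 and HKO 5 stand apart, because they also held transcripts of skeletal muscle (233 and 257 CPM summed over 6 markers) and epidermis (262 and 287 CPM summed over 6 markers), against at most 5.86 CPM and 5.21 CPM in the other 8 livers. Member results are therefore given with and without these livers where they differ.

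Of the 10 genes, 3 were lower in HKO livers and none was higher at an adjusted p under 0.05 (edgeR quasi-likelihood test, Benjamini-Hochberg adjustment over all tested genes), where 6.4% of all tested genes were called lower and 4.86% higher. The genes called were Ass1, Slc25a13 and Otc, which encode argininosuccinate synthase, the aspartate-glutamate carrier citrin and ornithine transcarbamylase. The other 7 also had negative log2 fold changes, without passing the test. The median log2 fold change of the 10 genes was -0.36, against 0.02 over all tested genes, of which 48.0% were negative. In the same 3 genes every HKO liver had a lower CPM than every Flox liver, a pattern that 6.48% of all tested genes had; the opposite pattern was in 4.41% of tested genes and in none of the 10. In whole liver, fewer cells of a type and less RNA per cell cannot be told apart. The calls depend on scaling. With library sizes alone in place of TMM factors, the median over all genes shifted by 0.23 on the log2 scale and became 0.25. Ass1 and Slc25a13 were still called there and Otc was not (edgeR with library sizes alone, adjusted p = 0.137), where 2.13% of all genes were lower. All 10 genes lay below that median. Without HKO 4 and HKO 5 the same 2 genes were called, where 2.91% of all tested genes were lower. Cps1, Asl and Arg1 joined the 3 when HKO 1 was left out (6 of 10 lower, against 5.13% of all genes), and Cps1 and Gls2 joined them by DESeq2 (5 of 10, against 9.0%).

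**Figure D1:**
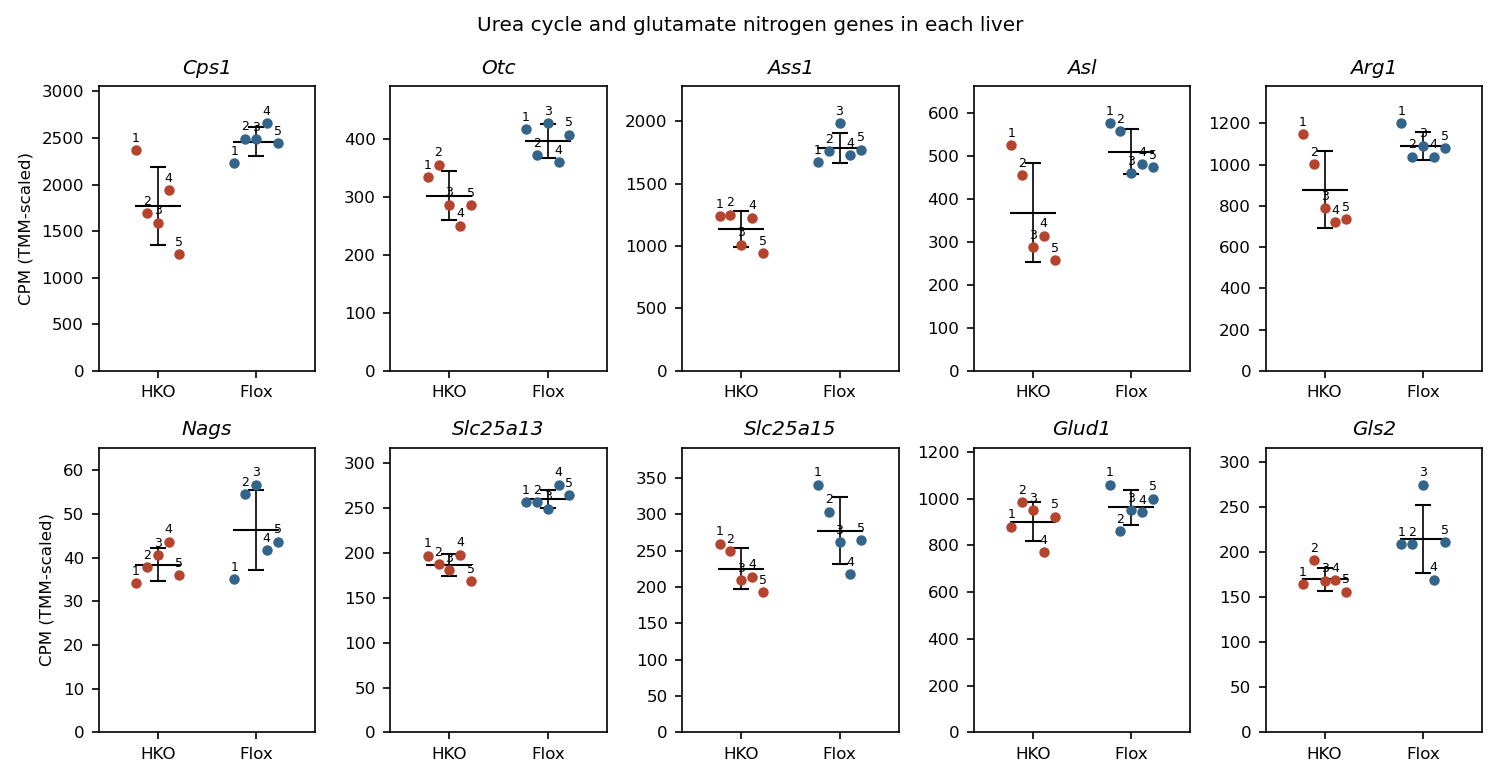
Level of each gene in CPM scaled with TMM factors (vertical axis from 0) in HKO livers (left) and Flox livers (right); each point is 1 liver with its number, and the bars give the mean and SD (n = 5 each). In Ass1, Slc25a13 and Otc all HKO points lie below all Flox points, and in Cps1, Asl and Arg1 the point of HKO 1 lies among the Flox points.

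Sequences just upstream of the 3 called genes are shown because these members carry the calls. They come from the RefSeq promoter table for GRCm38.p6, read 5′ to 3′ on the gene's strand, and were trimmed to the bases that lie before both the RefSeq start and the gene start in the deposited table. The Ass1 window is chr2:31470020-31470206 (plus strand, 187 bases), the Slc25a13 window is chr6:6217174-6217423 (minus strand, 250 bases) and the Otc window is chrX:10252055-10252304 (plus strand, 250 bases).
Ass1: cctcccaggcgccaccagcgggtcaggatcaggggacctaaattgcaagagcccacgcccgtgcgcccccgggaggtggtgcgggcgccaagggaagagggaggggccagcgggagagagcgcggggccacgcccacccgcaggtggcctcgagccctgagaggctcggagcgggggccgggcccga
Slc25a13: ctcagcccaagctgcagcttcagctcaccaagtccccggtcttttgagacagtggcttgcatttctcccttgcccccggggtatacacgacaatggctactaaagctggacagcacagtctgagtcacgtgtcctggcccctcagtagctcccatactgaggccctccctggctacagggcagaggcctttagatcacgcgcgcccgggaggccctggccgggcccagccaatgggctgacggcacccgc
Otc: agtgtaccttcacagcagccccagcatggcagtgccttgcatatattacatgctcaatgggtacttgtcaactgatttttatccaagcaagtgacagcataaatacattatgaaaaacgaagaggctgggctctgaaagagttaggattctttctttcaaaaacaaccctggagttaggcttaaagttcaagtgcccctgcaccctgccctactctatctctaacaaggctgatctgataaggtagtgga
The bases are all in lower case because none of the motifs searched was found in them. The G and C content was 75.4% in the Ass1 window, 62.8% in the Slc25a13 window and 43.6% in the Otc window, against a median of 52.4% over the 250 upstream bases of all promoters in the table. CpG pairs numbered 18, 11 and 1 in the same order of genes, so the 3 upstream sequences differ widely in composition.

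The motif search covered 7 windows of 300 bases in 6 of the genes (Ass1, Slc25a13, Slc25a15, Nags, Glud1 and Otc), on both strands. The cAMP response element TGACGTCA and its near variant TGACGCAA occurred in 1.79% and 0.490% of the table's 32851 promoters. The C/EBP sequences TTGCGCAA and TTGCNNAA occurred in 0.183% and 10.8%, the second including all matches of the first. TGTTCT, the core of the glucocorticoid receptor's element, occurred in 19.0%, and the HNF4 sequence CAAAGTCCA in 0.475%. No window of the members held any of the 6, which says only that these letters are not in these windows.

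The mitochondrial entry steps comprise Nags, Cps1 and Otc. Nags (ENSMUSG00000048217, chromosome 11, 102145513 to 102149477, plus strand) makes N-acetylglutamate, the activator that carbamoyl phosphate synthetase needs. Its level was 34.1, 37.8, 40.6, 43.7 and 35.9 CPM in HKO livers 1 to 5, against 35.1, 54.5, 56.7, 41.7 and 43.7 CPM in Flox livers 1 to 5. The groups overlapped, with only HKO 1 below all Flox livers. The log2 fold change was -0.27 (95% interval -0.55 to 0.0053), and Nags did not pass the test (edgeR adjusted p = 0.191).

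Cps1 (ENSMUSG00000025991, chromosome 1, 67123026 to 67231259, plus strand) encodes carbamoyl phosphate synthetase 1, which joins ammonia and bicarbonate in the first committed step. HKO livers 1 to 5 had 2368, 1692, 1593, 1943 and 1250 CPM, against 2229, 2493, 2491, 2660 and 2442 CPM in Flox livers 1 to 5. HKO 2 to HKO 5 lay below all Flox livers, and HKO 1 lay between Flox 1 and the rest of its group. The HKO mean was 1769 ± 417 CPM and the Flox mean 2463 ± 155 CPM (SD, n = 5 each), so the HKO livers were the more variable. Cps1 narrowly missed the threshold (log2 fold change -0.48, SE 0.14, edgeR adjusted p = 0.0523). It passed without HKO 1 (log2 fold change -0.60, edgeR adjusted p = 0.0132), and with all livers it passed by DESeq2 (adjusted p = 0.0127).

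Otc (ENSMUSG00000031173, chromosome X, 10252305 to 10321024, plus strand) encodes ornithine transcarbamylase, which makes citrulline from ornithine and carbamoyl phosphate. Its level was 334, 356, 287, 251 and 286 CPM in HKO livers 1 to 5 and 417, 373, 428, 361 and 408 CPM in Flox livers 1 to 5. The highest HKO liver and the lowest Flox liver were close but did not overlap on this scale. On the deposited FPKM scale, which has no TMM factor, they did overlap, with 59.7 to 77.3 FPKM in HKO livers and 68.3 to 85.2 FPKM in Flox livers. Otc fell by 0.39 on the log2 scale (SE 0.097, edgeR adjusted p = 0.0249), to 303 ± 42.1 CPM in HKO livers, against 397 ± 29.1 CPM in Flox livers (SD, n = 5 each). Of the 3 calls this was the least stable: it was lost without HKO 4 and HKO 5 together (log2 fold change -0.28, edgeR adjusted p = 0.107), and also without HKO 3, HKO 5, Flox 3 or Flox 5 alone (highest adjusted p = 0.0640).

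In the cytosol, Ass1, Asl and Arg1 carry the cycle from citrulline to urea and ornithine. Ass1 (ENSMUSG00000076441, chromosome 2, 31470207 to 31520672, plus strand) condenses citrulline with aspartate, which brings in the second nitrogen of urea. HKO livers 1 to 5 had 1238, 1251, 1011, 1226 and 944 CPM, and Flox livers 1 to 5 had 1670, 1758, 1984, 1726 and 1771 CPM. The highest HKO liver stayed well below the lowest Flox liver, the widest separation in CPM among the 3 called genes. Ass1 fell by 0.65 on the log2 scale (SE 0.096, 95% interval -0.86 to -0.44, edgeR adjusted p = 0.00195), with an HKO mean of 63.6% of the Flox mean. The call held in all 20 alternative fits, including the one without HKO 4 and HKO 5 (edgeR adjusted p = 0.00687). Its size moved by more than 1.5 times in some of them, to -0.43 with library sizes alone and -0.31 with quantile normalization.

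Asl (ENSMUSG00000025533, chromosome 5, 130011258 to 130025019, minus strand) encodes argininosuccinate lyase, which releases arginine and fumarate. Its level was 526, 455, 288, 315 and 259 CPM in HKO livers 1 to 5 and 577, 558, 461, 481 and 475 CPM in Flox livers 1 to 5. HKO 1 lay within the Flox range, HKO 2 just under it, and HKO 3 to HKO 5 far under it. This gave Asl the largest spread of the 10 genes in HKO livers, with a coefficient of variation of 31.4% in HKO livers against 10.4% in Flox livers. Asl did not pass the test (log2 fold change -0.47, SE 0.18, edgeR adjusted p = 0.128) and passed without HKO 1 (edgeR adjusted p = 0.0306). Without HKO 4 and HKO 5 its log2 fold change was -0.27 (edgeR adjusted p = 0.457).

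Arg1 (ENSMUSG00000019987, chromosome 10, 24915221 to 24927484, minus strand) encodes liver arginase, which splits arginine into urea and ornithine. It was at 1148, 1001, 788, 722 and 736 CPM in HKO livers 1 to 5, against 1201, 1039, 1092, 1038 and 1080 CPM in Flox livers 1 to 5. Its order across HKO livers resembled that of Asl, with HKO 1 inside the Flox range and HKO 3 to HKO 5 lowest. The log2 fold change was -0.31 (SE 0.13, edgeR adjusted p = 0.141), and without HKO 1 it was -0.42 (edgeR adjusted p = 0.0286). With quantile normalization the sign turned, to 0.01.

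Both mitochondrial carriers of the group exchange substrates of the cycle. Slc25a13 (ENSMUSG00000015112, chromosome 6, 6041218 to 6217173, minus strand) encodes citrin, the liver's main carrier of aspartate out of mitochondria in exchange for glutamate and a part of the malate-aspartate shuttle. It measured 197, 188, 181, 198 and 169 CPM in HKO livers 1 to 5, and 256, 256, 249, 276 and 264 CPM in Flox livers 1 to 5. Slc25a13 had the tightest values in both groups, with a coefficient of variation of 6.54% in HKO livers and 3.91% in Flox livers, and no overlap. It fell by 0.48 on the log2 scale (SE 0.062, 95% interval -0.62 to -0.35, edgeR adjusted p = 0.00101), the smallest p among the 10 genes. The call held in the same 20 alternative fits as that of Ass1, with an adjusted p of 0.00440 without HKO 4 and HKO 5; its size was smallest with library sizes alone, at -0.25, and was -0.28 with quantile normalization.

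Slc25a15 (ENSMUSG00000031482, chromosome 8, 22375551 to 22398597, minus strand) encodes the ornithine carrier, which brings ornithine in and citrulline out. Its values were 260, 249, 209, 214 and 193 CPM in HKO livers 1 to 5 and 341, 303, 261, 218 and 264 CPM in Flox livers 1 to 5. Flox 4 lay inside the HKO range, and 3 of 5 HKO livers lay below all Flox livers. Slc25a15 did not pass the test (log2 fold change -0.30, SE 0.12, edgeR adjusted p = 0.134).

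The enzymes that release nitrogen from glutamine and glutamate were Gls2 and Glud1. Gls2 (ENSMUSG00000044005, chromosome 10, 128194457 to 128209942, plus strand) encodes liver glutaminase, which frees ammonia from glutamine inside mitochondria. HKO livers 1 to 5 had 165, 191, 169, 169 and 156 CPM, and Flox livers 1 to 5 had 209, 209, 275, 169 and 211 CPM. Flox 4 was level with the HKO livers, while the other Flox livers lay above all of them. The log2 fold change was -0.34 (SE 0.11, edgeR adjusted p = 0.0747); it was called without Flox 4 (edgeR adjusted p = 0.0338) and by DESeq2 with all livers (adjusted p = 0.0368).

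Glud1 (ENSMUSG00000021794, chromosome 14, 34310727 to 34345265, plus strand) encodes glutamate dehydrogenase, which converts glutamate to ammonia and 2-oxoglutarate and back. It was at 881, 985, 950, 772 and 923 CPM in HKO livers 1 to 5, against 1060, 862, 952, 941 and 1000 CPM in Flox livers 1 to 5. The groups overlapped almost fully. The log2 fold change was -0.09 (95% interval -0.28 to 0.088, edgeR adjusted p = 0.511), the smallest of the 10 genes, and its sign turned to 0.14 with library sizes alone, 0.13 on the FPKM scale and 0.22 with quantile normalization.

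**Figure D2:**
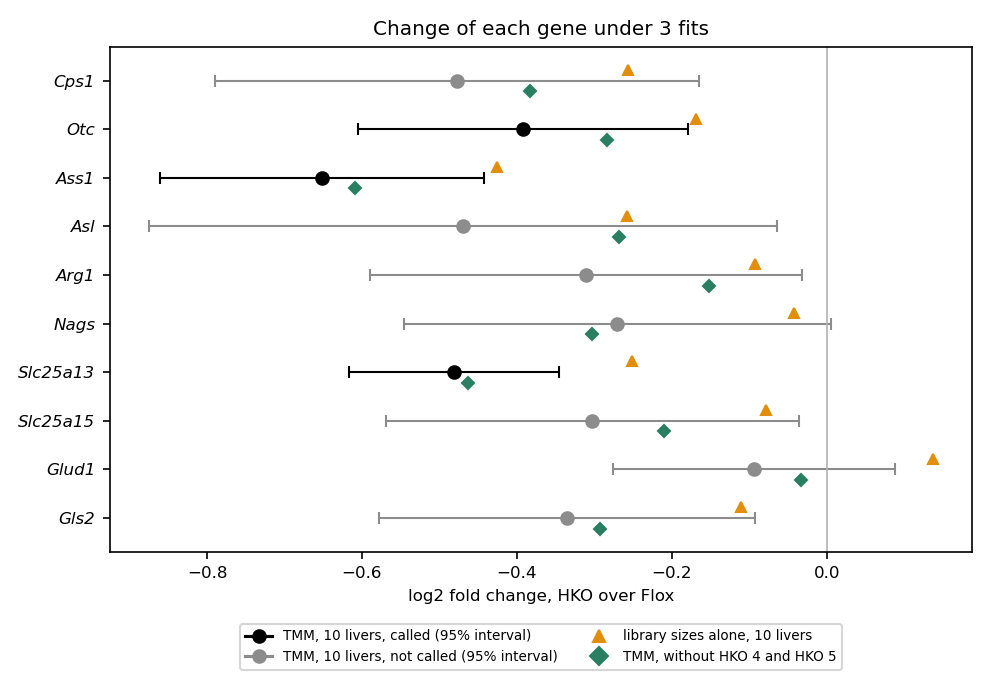
Log2 fold change of each gene, HKO over Flox (horizontal axis), with TMM factors and all 10 livers (circles with 95% intervals, black where called), with library sizes alone (triangles) and without HKO 4 and HKO 5 (diamonds). Ass1 has the most negative value under each of the 3 fits, and the triangles lie to the right of the circles in all 10 genes.

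The livers of the knockout group differed among themselves. Counted per liver, 5, 6, 8, 9 and 8 of the 10 genes lay below all Flox livers in HKO 1 to HKO 5. The share of all tested genes below all Flox livers was not counted liver by liver, so these counts have no background beside them. The median of the 10 genes was 87.8%, 89.1%, 72.3%, 76.6% and 68.5% of the Flox mean in HKO 1 to HKO 5, against 94.8% to 102% in Flox livers. In the median of the 10 genes HKO 1 and HKO 2 thus lay nearer to the Flox livers than HKO 3 to HKO 5. Ass1 stood at 70.2% of its Flox mean or less in every HKO liver. HKO 1 and HKO 2 were its highest HKO livers, with HKO 4 close behind at 68.8%. Slc25a13 did not follow that division, lying between 64.8% and 76.1% in HKO livers with its highest value in HKO 4. Glud1 lay between 80.2% and 102% in the same livers.

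**Figure D3:**
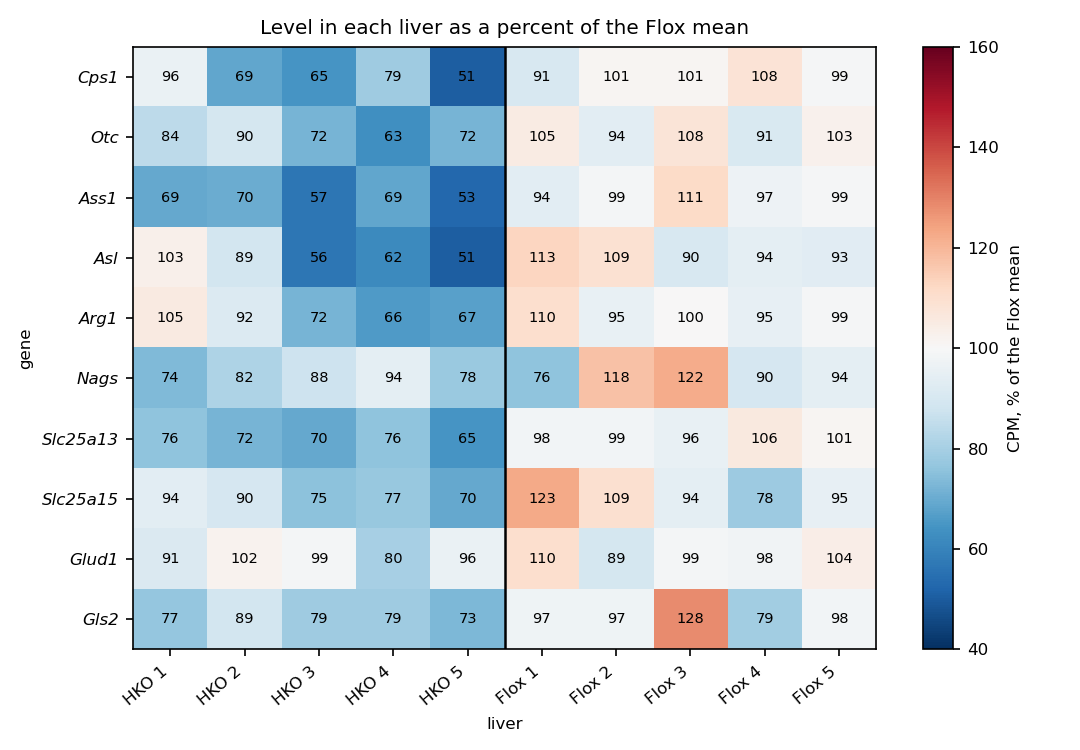
CPM of each gene (rows) in each liver (columns; HKO left of the line, Flox right of it) as a percent of the gene's Flox mean, with red above and blue below 100. Ass1 and Slc25a13 are low in all 5 HKO livers, Cps1 is low in 4 of them, Asl and Arg1 mainly in HKO 3, HKO 4 and HKO 5, and Glud1 lies between 80.2 and 102 in HKO livers.

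Summed over the 10 genes, the level was 7151, 6407, 5518, 5853 and 4951 CPM in HKO livers 1 to 5, against 7994, 7906, 8251, 7912 and 7958 CPM in Flox livers 1 to 5. The Flox sums were close to each other, at 8004 ± 142 CPM (SD, n = 5), while the HKO sums spread widely, at 5976 ± 843 CPM (SD, n = 5). With TMM factors every HKO sum lay below every Flox sum. The factors were 0.998 to 1.16 in HKO livers and 0.896 to 0.965 in Flox livers, which widens this gap. Sums without the factors are not given here. Cps1, the largest term of the sum in counts, also had a wider spread in HKO livers, with a coefficient of variation of 23.6% against 6.28% in Flox livers. For Arg1 the pair was 21.3% in HKO livers and 6.10% in Flox livers, while Nags, Slc25a15 and Gls2 varied more in Flox livers.

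Levels per gene length were compared with the deposited FPKM values (fragments relative to gene length and library size). The order of the 10 genes by mean FPKM was the same in both groups: Ass1, Arg1, Cps1, Glud1, Asl, Otc, Slc25a13, Gls2, Slc25a15 and Nags. Ass1 was at 446 ± 51.5 FPKM in HKO livers and 603 ± 56.3 FPKM in Flox livers (SD, n = 5 each). Arg1 was at 372 ± 57.5 FPKM in HKO livers and 399 ± 20.9 FPKM in Flox livers, so Ass1 and Arg1 overlapped in HKO livers but not in Flox livers. The lowest was Nags, at 12.9 ± 1.82 FPKM in HKO livers and 13.4 ± 3.04 FPKM in Flox livers. Neighbours that overlapped in both groups were Arg1 with Cps1, Asl with Otc and Slc25a13 with Gls2; in Flox livers Gls2 and Slc25a15 overlapped too.

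Ratios of genes within a liver do not depend on library scaling, and they were compared by an exact two-sided permutation test over all ways to assign the livers, with adjustment over the 8 ratios computed, of which 7 are given. Of the 7, 2 differed, both between a liver-type gene and its counterpart of other tissues. The ratio of Slc25a13 to Slc25a12, which encodes the related aspartate-glutamate carrier aralar of muscle and brain, was 25.6, 24.1, 22.1, 19.0 and 15.5 per length in HKO livers 1 to 5, against 28.9, 34.9, 28.0, 27.8 and 41.7 in Flox livers 1 to 5. No HKO ratio reached the lowest Flox ratio, and the log2 difference was -0.61 (exact permutation p = 0.00794, the smallest possible, adjusted p = 0.0317). Slc25a12 itself averaged 17.4 ± 2.96 CPM in HKO livers and 16.0 ± 2.74 CPM in Flox livers (SD, n = 5 each) and did not pass the test (edgeR adjusted p = 0.631). HKO 4 and HKO 5, which held the muscle transcripts, had the lowest ratios, and the part of those transcripts was not tested. Without them the log2 difference was -0.42, and HKO 1, HKO 2 and HKO 3 all still lay below the lowest Flox ratio. The adjusted p was then 0.286 by exact permutation, in a design of 3 livers against 5 in which the smallest p for a single ratio adjusts to 0.143.

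The ratio of Arg1 to Arg2, the mitochondrial arginase, was 412, 741, 819, 1168 and 614 per length in HKO livers 1 to 5, and 1194, 1219, 1643, 1231 and 2389 in Flox livers 1 to 5. The log2 difference was -1.06 (exact permutation p = 0.00794, adjusted p = 0.0317), with all HKO ratios below all Flox ratios. Arg2 rests on few reads, with 26 to 106 counts in HKO livers and 16 to 34 counts in Flox livers, and was not called by itself (log2 fold change 0.85, edgeR adjusted p = 0.199). Without HKO 4 and HKO 5 the log2 difference was -1.23, with HKO 1, HKO 2 and HKO 3 again below all Flox ratios, and the exact permutation adjusted p of 0.143 was that design's value for its smallest single p. Both differences lost the call when any single Flox liver was left out (exact permutation, adjusted p = 0.0635).

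The 5 other ratios did not pass the test. Ass1 to Asl had geometric means of 6.36 in HKO livers and 7.01 in Flox livers (exact permutation adjusted p = 0.490). Cps1 to Glul, where Glul is the glutamine synthetase of hepatocytes around the central vein, was at 1.06 in HKO livers and 1.36 in Flox livers (exact permutation adjusted p = 0.317).

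**Figure D4:**
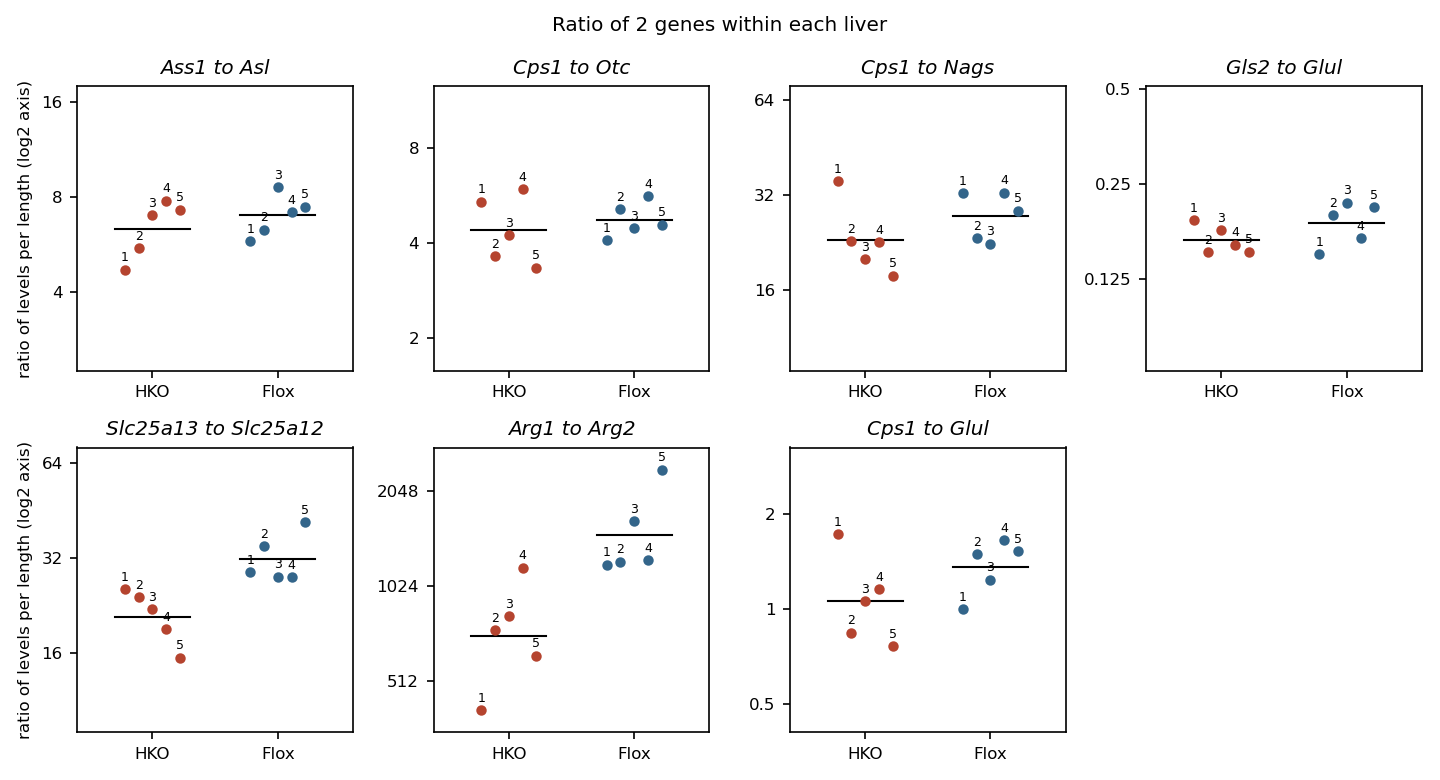
Ratio of levels per length of 2 genes within each liver (log2 axis, 3 log2 units in each panel), with HKO left and Flox right; points are livers with their numbers and lines are geometric means. The HKO and Flox points do not overlap in the panels of Slc25a13 to Slc25a12 and Arg1 to Arg2, and overlap in the other 5.

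Beyond the 10 genes, 80 of 81 genes of 6 related lists were tested, with genes in more than 1 list counted once. Of these, 3 were higher and 21 lower in HKO livers (edgeR). Among all tested genes 4.86% were higher and 6.4% lower, which is the background for each list below. Among 20 genes that carry amino groups and ammonia towards the cycle, 5 were lower, none higher and 15 not called, with a median log2 fold change of -0.19. Car5a, the mitochondrial carbonic anhydrase that supplies bicarbonate to Cps1, fell to 55.8 ± 3.56 CPM in HKO livers, against 76.4 ± 5.50 CPM in Flox livers (SD, n = 5 each; log2 fold change -0.45, edgeR adjusted p = 0.00217). Gpt, cytosolic alanine aminotransferase, was at 153 ± 10.3 CPM in HKO livers and 211 ± 18.8 CPM in Flox livers (SD, n = 5 each; log2 fold change -0.47, edgeR adjusted p = 0.00318). Nit2, an omega-amidase in the use of glutamine, fell (log2 fold change -0.44, edgeR adjusted p = 0.00302). In 4 of the 20 genes, Car5a, Gpt and Nit2 among them, every HKO liver lay below every Flox liver, a pattern in 6.48% of all tested genes. The glutamine transporter Slc38a3 (-0.56, edgeR adjusted p = 0.0424) and Slc38a4 (-0.35, edgeR adjusted p = 0.0459; named after its value was seen) were nearer to the threshold, and each lost the call without HKO 4 and HKO 5. In that fit 5 of the 20 genes were still lower, so others of the list had gained the call (2.91% of all tested genes were lower there). Glul was at 1118 ± 164 CPM in HKO livers and 1241 ± 192 CPM in Flox livers (SD, n = 5 each; edgeR adjusted p = 0.474).

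Of 17 tested genes for arginine, ornithine and polyamines, 3 were lower, 2 higher and 12 not called, with a median of -0.07. Agmat, annotated as agmatinase, was at 80.0 ± 4.40 CPM in HKO livers and 128 ± 9.44 CPM in Flox livers (SD, n = 5 each; log2 fold change -0.68, edgeR adjusted p = 0.000391). Oaz1 and Azin1, antizyme and its inhibitor, which act in opposite ways on ornithine decarboxylase, both fell (by 0.38 and 0.36 on the log2 scale; adjusted p = 0.00288 and 0.0137 by edgeR). Smox, spermine oxidase, rose to 8.25 ± 0.929 CPM in HKO livers, against 4.04 ± 1.35 CPM in Flox livers (SD, n = 5 each; log2 fold change 1.03, edgeR adjusted p = 0.00842). Gatm, which takes arginine into creatine synthesis and is named after its value was seen, also rose (log2 fold change 0.51, edgeR adjusted p = 0.0171), and was not called without HKO 4 and HKO 5.

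In the proline branch between glutamate and ornithine, 3 of 7 genes were lower, none higher and 4 not called, with a median of -0.22. The 3 were the breakdown enzymes Prodh2, Prodh and Aldh4a1, which turn hydroxyproline and proline into glutamate or its relatives. Prodh2 was at 114 ± 12.4 CPM in HKO livers and 183 ± 7.18 CPM in Flox livers (SD, n = 5 each; log2 fold change -0.68, edgeR adjusted p = 0.000528). Prodh and Aldh4a1 fell by 0.62 and 0.34 on the log2 scale (adjusted p = 0.00874 and 0.0308 by edgeR), and neither was called without HKO 4 and HKO 5. Aldh18a1, which makes proline precursors from glutamate, had 3.66 ± 0.689 CPM in HKO livers and 2.43 ± 0.977 CPM in Flox livers (SD, n = 5 each) and did not pass (edgeR adjusted p = 0.172).

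The list of regulators held 17 genes. It comprised receptors, transcription factors with their coactivators, and sirtuins known to act on urea cycle genes or enzymes. It also held the metabolic enzymes Tat and Pck1, which are not regulators and were not called (named after their values were seen). Of the 17 genes, 3 were lower, none higher and 14 not called, with a median of -0.22. Gcgr, the glucagon receptor, was at 184 ± 13.0 CPM in HKO livers and 249 ± 9.68 CPM in Flox livers, with no overlap (SD, n = 5 each; log2 fold change -0.44, edgeR adjusted p = 0.00188). Crtc2, a coactivator of CREB, and Klf15, a factor that promotes amino acid catabolism, fell by 0.30 and 0.66 on the log2 scale (adjusted p = 0.0291 and 0.0368 by edgeR). Both lost the call without HKO 4 and HKO 5, which left Gcgr as the 1 gene of the list called there. Of all tested genes, 2.91% were lower in that fit. Sirt3, a mitochondrial deacetylase, did not pass (log2 fold change -0.22, edgeR adjusted p = 0.104).

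Because the cycle belongs to periportal hepatocytes, zone markers outside it were set beside the members. Of 12 periportal markers 2 were lower, 1 higher and 9 not called, with a median of -0.01. The called ones were Pigr, the immunoglobulin transporter (-0.69, edgeR adjusted p = 0.00277), Hal, histidine ammonia lyase (-0.49, edgeR adjusted p = 0.0182), and the lipid droplet protein Hsd17b13, which was higher (0.60, edgeR adjusted p = 0.0434). Of 12 pericentral markers 5 were lower, none higher and 7 not called, with a median of -0.44. Cyp2e1, the ethanol-oxidizing cytochrome, was at 5308 ± 1009 CPM in HKO livers and 9620 ± 882 CPM in Flox livers (SD, n = 5 each; log2 fold change -0.86, edgeR adjusted p = 0.00195). Rgn, Gulo and Aldh3a2 fell by 0.88, 0.63 and 0.46 on the log2 scale (adjusted p = 0.000292, 0.00102 and 0.00511 by edgeR). The fifth was Lgr5 (-0.91, edgeR adjusted p = 0.0361), named after its value was seen. Without HKO 4 and HKO 5, 1 periportal marker was lower and 2 were higher, with a median of 0.11, and Hal was no longer called. In the same fit 7 pericentral markers were lower and none higher, with a median of -0.66. Of all 18514 tested genes there, 2.91% were lower and 454 were higher. Genes of both zones were thus among the lower ones; the difference between the zones was not tested.

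**Figure D5:**
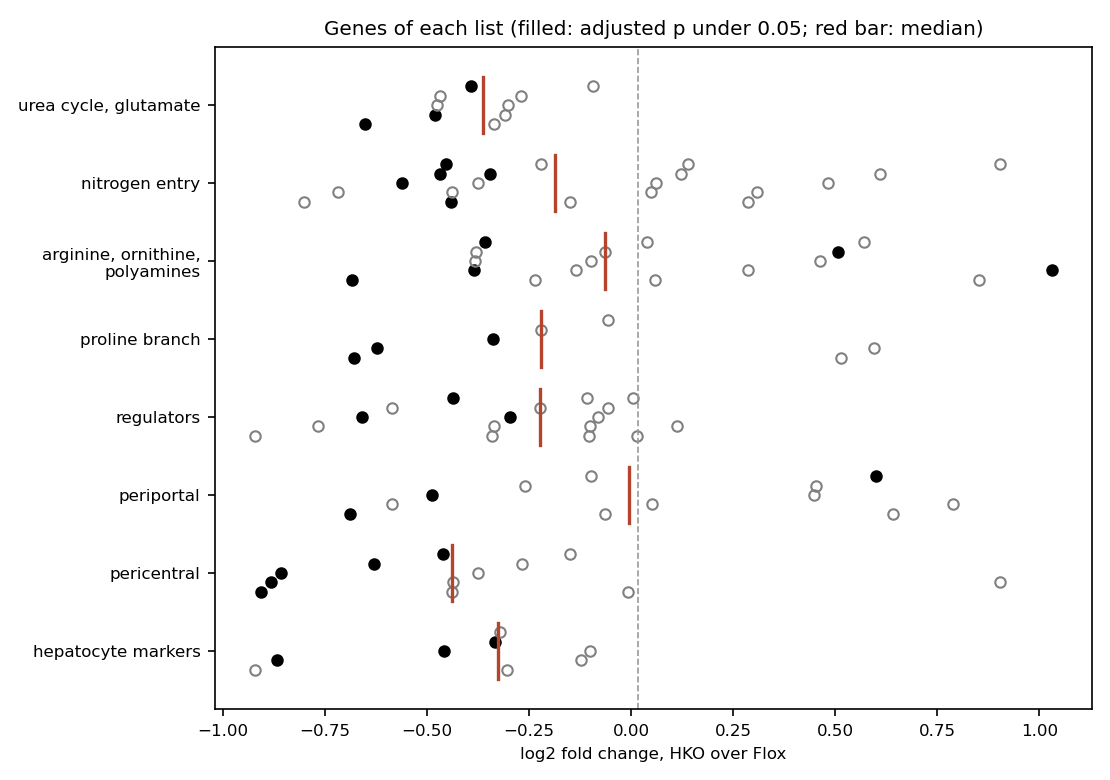
Log2 fold change, HKO over Flox (horizontal axis), of the tested genes of each list (rows); filled circles passed an adjusted p of 0.05 by edgeR, the red bar is the list's median and the dashed line is the median of all tested genes. The 10 urea cycle and glutamate genes all lie left of the dashed line, with a median of -0.36.

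Markers of other cells moved as well, where 4.86% of all tested genes were higher and 6.4% lower. In the fit without HKO 4 and HKO 5, 454 of 18514 tested genes were higher and 539 lower. Of 6 stellate cell and fibroblast markers 5 were higher, with a summed level of 143 to 348 CPM in HKO livers and 42.8 to 127 CPM in Flox livers. Without HKO 4 and HKO 5 only 2 of the 6 were called higher, and the median log2 fold change was 1.23, against 1.67 with all livers. Of 7 macrophage markers 4 were higher, with sums of 216 to 300 CPM in HKO livers and 165 to 259 CPM in Flox livers; 3 were called without HKO 4 and HKO 5. Among 8 hepatocyte markers 3 were lower and none higher, with a median log2 fold change of -0.33, beside -0.36 for the 10 members; without HKO 4 and HKO 5 the medians were -0.22 and -0.29, with 2 hepatocyte markers lower. Of 6 endothelial markers 1 was higher and of 5 cholangiocyte markers 2 were higher, and none of either list was called without HKO 4 and HKO 5. Of 7 lymphocyte and neutrophil markers 1 was lower in both fits. Intestinal and pancreatic markers summed to 111 to 131 CPM in HKO livers and 179 to 240 CPM in Flox livers, with 3 of 4 tested genes lower, and 2 without HKO 4 and HKO 5. Most of these sums was Fabp2, at 87.5 to 100 CPM in HKO livers and 141 to 181 CPM in Flox livers. Vil1, another marker of the list, was at 0.518 CPM or less in every liver. Fabp2 and Vil1 are named after their values were seen. No marker was at 0 in all livers. The part of these cell markers in the member results was not tested. Without HKO 4 and HKO 5, the livers with muscle and epidermal transcripts, member log2 fold changes ran from -0.61 for Ass1 to -0.034 for Glud1. Those of Slc25a13, Cps1, Nags, Gls2, Otc, Asl, Slc25a15 and Arg1 were -0.46, -0.38, -0.30, -0.29, -0.28, -0.27, -0.21 and -0.15.

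Among genes outside all lists, those whose profile over the 10 livers lay nearest to the mean profile of the members were Slc27a5, Hsd11b1, Sult1a1, Fah and Retsat. Likeness was measured as the root mean square difference of log2 CPM scaled to mean 0 and SD 1 over the 10 livers, which was 0.155 for Slc27a5 and 0.247 for Retsat. Of the members, Ass1 (0.305) and Otc (0.321) lay nearest to their own mean profile, and Nags (0.986) and Glud1 (0.991) farthest from it. This is a description of 10 livers that share their libraries and scaling.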

How the data were processed

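Liver RNA from 5 HKO and 5 Flox mice was sequenced; per the labels' protocols, polyadenylated RNA was read in pairs from libraries whose second strand carried dUTP. The authors deposited counts and FPKM per gene and liver, per the file headers. Tools listed in the submitters' processing notes, with no roles, are edgeR, DESeq2, StringTie 2.1.6, HISAT2 2.2.1 and cutadapt 1.9. The genome build, the treatment of reads shared between genes and whether counting used strand are not given in the sources used here; coordinates are the deposited ones, and 8 of the 10 genes have the same start and end in GENCODE M21 (GRCm38).

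From the deposited counts (52790000 to 60765120 per liver), edgeR 4.0.16 in R 4.3.3 kept 18065 genes with filterByExpr. TMM factors were 0.998 to 1.16 in HKO livers and 0.896 to 0.965 in Flox livers. The robust quasi-likelihood test compared HKO with Flox, with Benjamini-Hochberg adjustment over all tested genes and a threshold of 0.05. CPM values use the TMM factors, and log2 fold changes are HKO over Flox. Ratios used counts per length and exact permutation (smallest p 0.00794); 1 of the 8 ratios is not reported here. Livers were numbered in accession order within a group. Replicates differed by more than counting error (chi-square per degree of freedom at least 60.5 in HKO and 60.1 in Flox livers). The scripts were tested on simulated data. Alternatives used DESeq2 1.42.0, upper-quartile and quantile scaling, limma 3.58.1 on log2(FPKM + 0.5) and log2(FPKM + 1), no filter, a length trend, and left-out livers; library sizes alone and length with GC trends were added after the data were seen.

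The 10 genes, related lists, markers and motifs were chosen with earlier results of these data known. Named genes are Me1, the 10 genes, the genes of the ratios, up to 4 others with the smallest p in each list, and the 5 nearest profiles; others are said to be named after their values were seen. Cpa1 and Prss2 of the marker lists were not analysed here. Pycr3 was matched as Pycrl, and Slc25a2 did not pass the filter. Promoters of Cps1, Asl, Arg1 and Gls2 were not used here.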

Additional observations from a re-analysis of the deposited data

Results flagged for a closer look

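Of 36 groups of 5 livers examined for a liver far from the others (the 10 genes, Me1 and 7 ratios, each in HKO and in Flox), 2 were marked, both in Me1. HKO 5 had 26.9 CPM of Me1, with a gap to the next HKO liver of 73.4% of the group's range. Flox 1 had 227 CPM of Me1, with a gap of 76.9% of the range. About 1 in 20 groups is marked by chance, and no member gene and no ratio was marked.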

How the results depend on the processing

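The calls of Ass1 and Slc25a13 and the absence of higher members held under all 20 alternatives (10 other settings and 10 fits that leave out 1 liver). With library sizes alone the all-gene median of log2 fold changes moved by 0.23, with FPKM + 0.5 by 0.14 and with FPKM + 1 by 0.12. Of the calls, 90.4%, 88.2% and 88.1% were higher in these settings, against 43.2% in the main test. Over all genes the higher count was 3632, 3031 and 3017 in these 3 settings, and the lower count 384, 405 and 406. These are counts out of 18065, 12892 and 12892 tested genes. DESeq2 gave 1566 higher and 1626 lower of 18065 genes. Without HKO 4 and HKO 5 there were 454 higher and 539 lower of 18514 genes. Of all members, 5 were lower by DESeq2, where 9.0% of all tested genes were lower. With length and GC trends removed 5 were lower, where 1251 of 18040 tested genes were lower. Of the related list genes, 80 of which were tested in the main fit, 9 were higher by DESeq2 and 11 with library sizes alone. With either FPKM setting 10 were higher, and with quantile normalization 7. In each of the last 4 settings 11 were lower. The all-gene counts above are the background for these. With quantile normalization it was 865 higher and 846 lower of 18065 genes. All 10 members lay below the median of all genes in every setting except quantile normalization (8 of 10).

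Cps1 was called by DESeq2 (-0.48), with the length trend removed (-0.54) and with length and GC trends removed (-0.52). Its change was smallest with quantile normalization (-0.057), library sizes alone (-0.26), either FPKM setting (-0.28) and without HKO 4 and HKO 5 (-0.38), and not called there. Gls2 was called by DESeq2 (-0.34) and with length and GC trends removed (-0.37). Otc was not called with library sizes alone (-0.17), FPKM + 0.5 (-0.18), FPKM + 1 (-0.18), quantile normalization (-0.13) or without HKO 4 and HKO 5 (-0.28). The sign turned for Arg1 with quantile normalization (0.010), and for Glud1 with library sizes alone (0.14), FPKM + 0.5 (0.13), FPKM + 1 (0.13) and quantile normalization (0.22). It also turned for Glul in the same 4 settings (0.083, 0.072, 0.072 and 0.20), for Sirt3 with library sizes alone (0.00099) and for Slc25a12 without HKO 4 and HKO 5 (-0.063). Without these livers the log2 difference was -0.42 for Slc25a13 to Slc25a12 and -1.23 for Arg1 to Arg2, neither called, in a design of 3 livers against 5 whose smallest p for a single ratio adjusts to 0.143; in both ratios the 3 HKO livers lay below all Flox livers. The cause of the other changes was not tested.

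Leaving out 1 liver at a time gave 498 to 1058 higher and 691 to 1162 lower genes, 2 to 6 lower members (6 without HKO 1), and 2 to 5 higher and 15 to 21 lower list genes. The log2 fold change ranged from -0.60 to -0.37 for Cps1, -0.46 to -0.33 for Otc, -0.69 to -0.59 for Ass1, -0.62 to -0.36 for Asl, -0.42 to -0.24 for Arg1, -0.50 to -0.44 for Slc25a13 and -0.41 to -0.23 for Gls2. The log2 difference ranged from -0.68 to -0.50 for Slc25a13 to Slc25a12 and -1.24 to -0.86 for Arg1 to Arg2. The calls of Slc38a3, Slc38a4, Aldh4a1, Crtc2, Klf15, Hal, Hsd17b13 and Lgr5 were lost in at least 1 of these fits. No paired analysis was possible because the labels give the groups no shared replicate numbers.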
